A study of Xenopus laevis with 90 samples.

Results

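Keratins are the intermediate filament proteins of epithelia. A type I chain pairs with a type II chain, and the filaments they form are anchored at desmosomes and give epithelial sheets their strength. In *Xenopus*, simple keratins of the krt8, krt18 and krt19 kind are stored in the egg and inherited by the outer cells of the blastula, while other keratins are first transcribed after zygotic genome activation (ZGA), when the surface ectoderm forms.

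All genes whose symbol starts with krt and a digit were taken, leaving out the krtap and krtcap genes. They came to 60 of 37504 genes in the table of frog 1 and 53 of 36504 in that of frog 2, and the 53 were all among the 60. By their symbols, 35 were type I and 25 type II. On assembly Xenopus_laevis_v10.1 of RefSeq, 33 of the 35 type I genes lay on chromosomes 9_10L and 9_10S and 23 of the 25 type II genes on 2L and 2S, where L and S are the long and short copy of each chromosome in this tetraploid frog. The exceptions were pairs of neighbours. The type I genes krt18.1.L and krt18.1.S lay next to krt8.1.L and krt8.1.S on 2L and 2S, with gaps of 66.56 and 54.98 kb. The type II genes krt8.2.L and krt8.2.S lay next to krt18.3.L and krt18.3.S on 9_10L and 9_10S, with gaps of 900 and 37 bases.

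Total RNA was sequenced from pools of 3 whole *Xenopus laevis* embryos at 5.5, 6.5 and 7.5 hours post fertilization (hpf), with 3 sibling pools per group from each of 2 frogs, 15 groups and 90 libraries. Treated embryos were injected as zygotes with mRNAs for the H3K4 demethylase Kdm5b (Kdm5b-wt, 11 ng), the mutant histone H3.3-K4M (345 pg) and TIR1 (5 ng), to remove methylation of lysine 4 of histone H3. Control embryos received catalytically inactive Kdm5b (Kdm5b-ci, 4 ng), H3.3-wt (345 pg) and TIR1 (5 ng). Treated and control embryos thus also differed in the amount of Kdm5b mRNA. The study had set the amounts to give equal protein levels before ZGA. Embryos marked +IAA were moved into 500 µM auxin at the last stage before ZGA, so that the proteins were degraded from then on and depletion was confined to a window before ZGA. Embryos marked -IAA had no auxin, so that depletion persisted, and Wt-IAA embryos were not injected. All embryos carried the wild type genome. In the study the frogs are the biological replicates and sibling pools the technical ones, so p-values measure the spread between siblings.

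Values are TPM, the share of a gene in all transcripts of a library, corrected for length. Depth is unknown, since TPM hold no counts. Differences are on the scale of log2(TPM + 1), which understates the change of low genes, and a gene was called where limma gave an adjusted p under 0.05 over all genes tested in that frog. At least 1 TPM in at least 3 libraries was required, which 12 keratins passed in each frog, the same 12, 6 of each type. The other 48 were under 1 TPM in all libraries, with a highest value of 0.796 TPM, and 6 of these were at 0 TPM wherever they were listed. TPM are shares, so a shift of the whole library moves all genes. In wild type embryos the median gene moved by 0.39 in frog 1 and by -0.69 in frog 2 between 5.5 and 7.5 hpf. Ribosomal RNA left after depletion took 4.04 to 37.4% of the TPM in frog 1 and 1.77 to 15.6% in frog 2. Some of the changes and counts are therefore also given after median-ratio rescaling, which sets the typical gene to no change. The markers fixed for whole embryos were present, with 12 or 13 of 13 maternal marker genes at 1 TPM or more in all pools of each group at 7.5 hpf. Of 13 surface epithelium marker copies, 11 reached that level in all pools of each group of frog 1 at that time, and 10 or 11 in frog 2. The goblet cell lectin itln1.L was at 0 TPM in all 15 libraries of frog 1 at 7.5 hpf. In frog 2 it was not at 0 TPM in all pools of Control+IAA and Wt-IAA embryos.

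The keratins called maternal here made up almost all keratin RNA. The name rests on the storage of such keratins in the egg and not on a measurement in these libraries. No egg library was included, and total RNA does not separate stored from newly made transcripts. The part of new transcription in their levels was not tested. krt8.1, krt18.1 and krt19, each with an L and an S copy, held 93.5 to 99.3% of the summed keratin TPM in the 45 libraries of frog 1 and 88.8 to 99.1% in those of frog 2. krt8.1.L, the type II chain of the simple epithelial pair, was the highest keratin in each frog, with 154 to 294 TPM over the 45 libraries of frog 1 and 156 to 296 TPM in frog 2. Its type I partner krt18.1.L had 56.7 to 115 TPM in frog 1 and 74.0 to 136 TPM in frog 2. krt19.L, a type I chain of simple epithelia, had 43.6 to 94.3 TPM in frog 1 and 35.0 to 84.2 TPM in frog 2. The S copies were lower. krt8.1.S had 13.0 to 38.5 TPM in frog 1 and 28.0 to 52.8 TPM in frog 2, krt18.1.S had 18.7 to 53.5 and 21.8 to 51.6 TPM, and krt19.S had 22.9 to 57.9 and 9.77 to 25.3 TPM. By median level krt8.1.L came before krt18.1.L and krt18.1.L before krt19.L in both frogs. The ranges of krt18.1.L and krt19.L over the libraries overlapped, but krt18.1.L was above krt19.L within each library. The ranges of the 3 S copies overlapped one another as well, except for krt8.1.S and krt19.S in frog 2. Summed over all members, type I RNA was close to type II RNA in frog 1 and below it in each library of frog 2. The ratio of type I to type II TPM had a median of 0.947 in frog 1 (0.812 to 1.06) and of 0.816 in frog 2 (0.724 to 0.892).

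In wild type embryos the maternal keratins moved in the direction of the median gene in each frog, with differences from it in frog 2. krt8.1.L had 186, 167 and 155 TPM at 5.5 hpf, 240, 275 and 279 TPM at 6.5 hpf and 220, 235 and 234 TPM at 7.5 hpf in frog 1. Frog 2 had 284, 281 and 269 TPM at 5.5 hpf, 229, 183 and 232 TPM at 6.5 hpf and 184, 173 and 170 TPM at 7.5 hpf. The pools of 5.5 and 7.5 hpf did not overlap in either frog, but the direction was opposite. The change between 5.5 and 7.5 hpf was 0.44 ± 0.09 (SE) in frog 1 and -0.66 ± 0.07 in frog 2 (limma, adjusted p = 0.000163 and 5.53e-11), close to the median gene. After rescaling it was 0.01 (adjusted p = 0.944) and 0.15 (adjusted p = 0.00305). The other maternal copies behaved alike, with 0.54 to 0.63 in frog 1 and -1.01 to -0.41 in frog 2 before rescaling. After rescaling, frog 2 had krt8.1.S at 0.38 and krt18.1.L at 0.19 called higher and krt19.S at -0.25 called lower (limma, adjusted p = 3.44e-08, 0.00482 and 0.0170), while none of the maternal copies was called in frog 1.

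**Figure D1:**
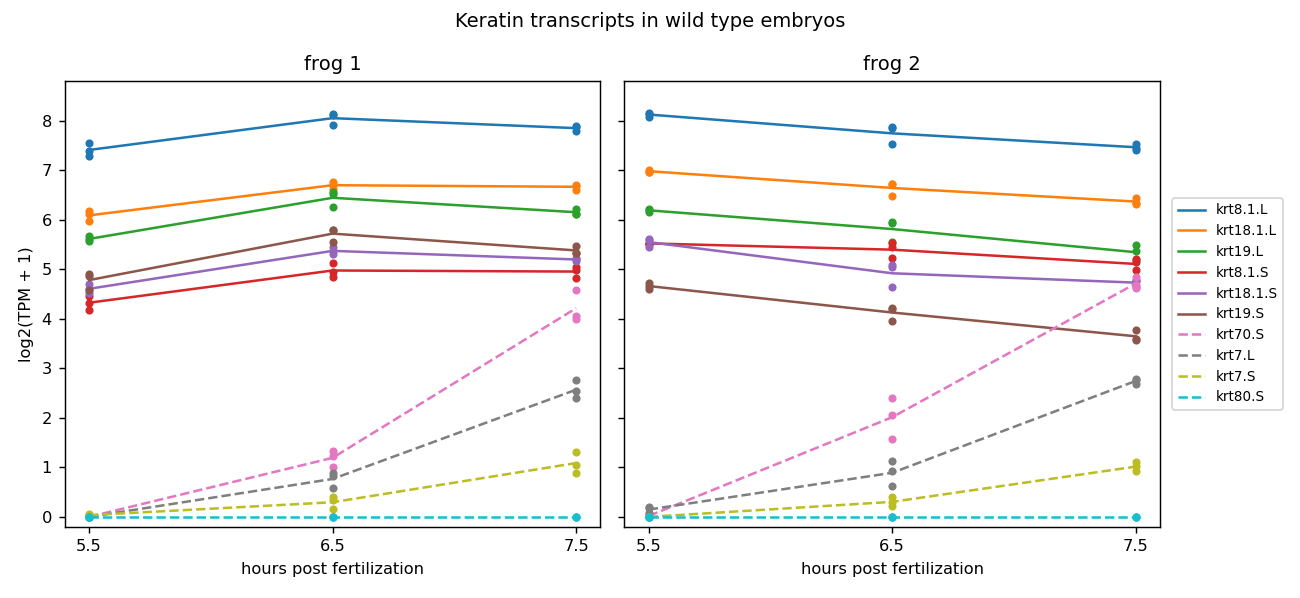
Level of the 10 named keratins in wild type embryos at 5.5, 6.5 and 7.5 hpf, as log2(TPM + 1), with 1 panel per frog. Points are pools, lines join the means of 3 pools, solid lines mark the 6 maternal copies and dashed lines the 4 other genes. krt70.S, krt7.L and krt7.S leave 0 after 5.5 hpf in both frogs and krt80.S stays at 0. The solid lines lie higher at 7.5 than at 5.5 hpf in frog 1 and lower in frog 2.

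krt70.S, a type I keratin on chromosome 9_10S (start 964805, end 968587), showed the steepest onset. At 5.5 hpf it was at 0, 0 and 0 TPM in frog 1 and at 0, 0 and 0.0384 TPM in frog 2. At 6.5 hpf it had 1.36, 1.00 and 1.53 TPM in frog 1 and 3.16, 1.99 and 4.29 TPM in frog 2. At 7.5 hpf it had 15.6, 22.9 and 15.1 TPM in frog 1 and 24.6, 27.6 and 23.7 TPM in frog 2. The pools of the 3 times did not overlap in either frog. The difference between 7.5 and 5.5 hpf was 4.21 ± 0.17 in frog 1 and 4.69 ± 0.27 in frog 2 (limma, adjusted p = 1.28e-20 and 9.14e-17), and 257 of 20891 and 162 of 20277 genes had a larger one. By 7.5 hpf the gene held 2.78 to 4.19% of the keratin TPM of wild type pools in frog 1 and 5.81 to 6.93% in frog 2. Its L copy krt70.L, on 9_10L and chosen for description after its values were seen, stayed under 0.2 TPM, with at most 0.172 TPM in frog 1 and 0.139 TPM in frog 2.

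krt7, a type II keratin, appeared from both copies. krt7.L (2L, start 156372020, end 156378247) was at 0 TPM in the 3 pools of frog 1 at 5.5 hpf and at 0.145, 0.0556 and 0.126 TPM in frog 2. It had 0.773, 0.506 and 0.841 TPM at 6.5 hpf in frog 1 and 0.893, 0.549 and 1.17 TPM in frog 2. At 7.5 hpf it had 4.27, 5.78 and 4.83 TPM in frog 1 and 5.396, 5.82 and 5.90 TPM in frog 2. The 3 times did not overlap in either frog. krt7.S (2S, start 139685823, end 139692506) was lower, with 0.857, 1.07 and 1.496 TPM in frog 1 and 0.892, 1.03 and 1.15 TPM in frog 2 at 7.5 hpf, against at most 0.0403 TPM in any wild type pool at 5.5 hpf. The change between 5.5 and 7.5 hpf was 2.57 ± 0.22 and 2.60 ± 0.20 for krt7.L (limma, adjusted p = 5.92e-12 and 1.21e-13) and 1.05 ± 0.13 and 1.02 ± 0.12 for krt7.S (adjusted p = 8.21e-08 and 3.51e-09). These 2 genes and krt70.S were the 3 of 12 keratins called higher in both frogs, where 7.29% of 19581 genes tested in both were. None of the 12 was called lower in both, where 4.1% of genes were. All 3 were under 1 TPM in each library at 5.5 hpf and passed the filter only through later libraries, so that a difference from 5.5 hpf was built into their selection.

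Within a frog, 10 of 12 keratins were called higher at 7.5 than at 5.5 hpf in frog 1, where 56.2% of all genes were, and none lower, where 4.28% were. The counts of frog 2 were 3 higher (8.37% of genes) and 7 lower (79.7%). The median over the 12 was 0.60 in frog 1 and -0.51 in frog 2, beside 0.39 and -0.69 over all genes. After rescaling 3 were higher and 0 lower in frog 1, where 21.6% of genes were higher and 3755 of 20739 lower. In frog 2 they became 6 higher (24.4% of genes) and 1 lower (22.4%). At 6.5 hpf 9 keratins were higher and 0 lower in frog 1, where 75.8% and 1.03% of genes were, and frog 2 had 3 higher (5.33%) and 5 lower (64.4%). After rescaling 2 were higher and 0 lower in frog 1, where 7.68% of genes were higher and 1860 of 20739 lower. Rescaled frog 2 had 3 higher (11.4%) and 1 lower (2054 of 20419 genes). At 6.5 hpf krt70.S and krt7.L were the 2 keratins called higher in both frogs (4.16% of genes), with 1.19 ± 0.17 and 1.99 ± 0.27 for krt70.S and 0.77 ± 0.22 and 0.74 ± 0.20 for krt7.L. krt8.2.S and krt18.3.S, neighbours on 9_10S of types II and I, were low throughout, with 0.157 to 2.33 and 1.42 to 4.49 TPM in frog 1 and 0.554 to 1.92 and 2.25 to 5.82 TPM in frog 2. krt12.4, the classical embryonic epidermal keratin of *Xenopus* with the older symbol xk81a1, was chosen for description after its values were seen. Its L copy reached at most 0.453 TPM in frog 1 and 0.796 TPM in frog 2 and its S copy 0.0827 and 0.693 TPM, and neither was tested.

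At 7.5 hpf krt70.S was lower in treated than in control embryos under both schemes and in both frogs. In frog 1 it had 4.07, 4.59 and 4.66 TPM in Treated+IAA embryos, against 6.91, 7.02 and 11.4 TPM in Control+IAA embryos. Frog 2 had 8.57, 6.70 and 11.9 TPM in Treated+IAA embryos, against 19.3, 32.7 and 23.0 TPM in Control+IAA embryos. The groups did not overlap in either frog. The treated mean was 52.5% of the control mean in frog 1 and 36.3% in frog 2, and the difference was -0.77 ± 0.17 and -1.37 ± 0.27 (limma, adjusted p = 0.0209 and 0.00152). In bulk samples, fewer cells of a type and less RNA per cell cannot be told apart. Under persistent depletion it had 4.19, 4.81 and 3.57 TPM in Treated-IAA embryos of frog 1, against 9.55, 5.94 and 12.3 TPM in Control-IAA embryos. Frog 2 had 8.32, 7.96 and 7.32 TPM in Treated-IAA embryos, against 8.08, 16.8 and 27.3 TPM in Control-IAA embryos. The groups were separate in frog 1 and overlapped in frog 2, where 1 control pool lay within the treated range. The treated mean was 45.3% of the control mean in each frog, and the difference was -0.94 ± 0.17 and -0.91 ± 0.27 (adjusted p = 0.00322 and 0.0229). Among all genes, 303 of 20891 in frog 1 and 113 of 20277 in frog 2 had a lower value than krt70.S in the window, and 203 and 258 under persistence.

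These calls rested on few pools and on the spread shared by all groups. Fitted on the 6 libraries of the comparison alone, krt70.S had adjusted p = 0.274 and 0.0806 in the window and 0.271 and 0.224 under persistence. Its adjusted p in frog 1 was 0.638 and 0.627 without replicate 1.1 or 1.3 (pools 1 and 3 of frog 1) in the window and 0.187 and 0.482 under persistence. In frog 2 it was 0.557 in the window without replicate 2.2, and 0.203 and 0.442 under persistence without replicate 2.2 or 2.3. With a pseudocount of 0.1 the frog 1 calls were lost as well (adjusted p = 0.452 and 0.184). Over all fits that left out 1 replicate the value was negative, from -1.61 to -0.47.

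**Figure D2:**
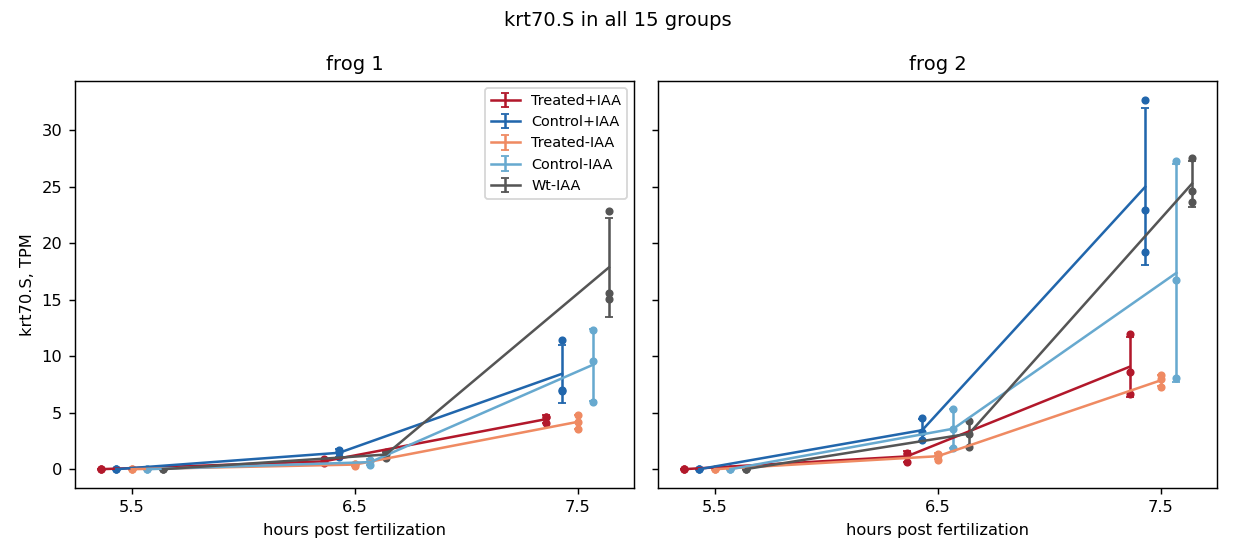
krt70.S in TPM against hours post fertilization in the 5 embryo groups, with 1 panel per frog. Points are pools, lines join the means of 3 pools and bars are SD, with groups set slightly apart along the axis. All groups lie at or near 0 at 5.5 hpf, and at 7.5 hpf the treated groups have the lowest means in both frogs.

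At 6.5 hpf the depletion effect on krt70.S passed the test in frog 2 only. The gene had 0.926, 0.604 and 0.540 TPM in Treated+IAA embryos of frog 1 at that time, against 1.06, 1.56 and 1.74 TPM in Control+IAA embryos. Frog 2 had 1.46, 1.31 and 0.612 TPM in Treated+IAA embryos, against 2.56, 3.29 and 4.51 TPM in Control+IAA embryos. The groups did not overlap in either frog, but only frog 2 was called, at -1.07 ± 0.27 (limma, adjusted p = 0.0341), with -0.53 ± 0.17 in frog 1 (adjusted p = 0.272). Under persistence frog 2 was called as well, at -1.03 ± 0.27 (adjusted p = 0.0368), with -0.20 ± 0.17 in frog 1 (adjusted p = 0.895). In frog 2 the window call was lost without any 1 of the 3 replicates, and the persistent one without replicate 2.1 or 2.2. The window effect on krt70.S minus the persistent one was 0.17 ± 0.25 in frog 1 and -0.46 ± 0.38 in frog 2 at 7.5 hpf, and neither was called (adjusted p = 1 and 0.629). At 5.5 hpf the gene was at 0 TPM in all injected pools.

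krt7.L was the other keratin called lower on depletion, in frog 2 only. In frog 2 it had 2.46, 2.97 and 1.399 TPM in Treated+IAA embryos, against 3.33, 7.76 and 4.63 TPM in Control+IAA embryos, and 2.15, 0.974 and 2.49 TPM in Treated-IAA embryos, against 3.84, 3.87 and 5.34 TPM in Control-IAA embryos. In frog 1 it had 2.01, 2.39 and 3.58 TPM in Treated+IAA embryos, against 5.00, 3.79 and 4.48 TPM in Control+IAA embryos, and 1.06, 1.98 and 1.91 TPM in Treated-IAA embryos, against 2.68, 2.39 and 6.44 TPM in Control-IAA embryos. Treated and control pools did not overlap in any of the 4 comparisons. The differences were -0.90 ± 0.20 and -0.93 ± 0.20 in frog 2 for window and persistence (limma, adjusted p = 0.00526 and 0.00323) and -0.58 ± 0.22 and -0.79 ± 0.22 in frog 1 (adjusted p = 0.492 and 0.0875). After rescaling, persistence in frog 1 was called at -0.85 (adjusted p = 0.0290). In frog 2 each call was lost without replicate 2.2 or 2.3 (adjusted p = 0.160 and 0.161 in the window, 0.0627 and 0.148 under persistence), and a pseudocount of 0.1 ended the window call (adjusted p = 0.130). Whether the effect differed between frogs was not tested.

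krt7.S did not pass the test in any depletion comparison at 7.5 hpf. It had 2.37, 1.86 and 1.57 TPM in Treated+IAA embryos of frog 1, against 1.42, 1.93 and 2.33 TPM in Control+IAA embryos, and 1.15, 1.39 and 1.31 TPM in those of frog 2, against 1.83, 1.06 and 1.66 TPM. The groups overlapped in both frogs. The differences were 0.02 ± 0.13 and -0.13 ± 0.12 in the window and -0.20 ± 0.13 and -0.17 ± 0.12 under persistence (limma, adjusted p = 0.990, 0.7997, 0.702 and 0.310). The unequal behaviour of the copies was then tested directly, as the change of log2(TPM + 1) of L minus that of S over all pairs of copies, a test added after these values were seen. In frog 2 krt7.L fell relative to krt7.S by 0.77 ± 0.22 in the window and by 0.76 ± 0.22 under persistence (limma, adjusted p = 0.0406 and 0.0481), where 3.33% and 3.08% of 5619 pairs were called. In frog 1 the values were -0.61 ± 0.21 and -0.60 ± 0.21 (adjusted p = 0.314 and 0.340), where 0.577% and 0.227% of 5715 pairs were called, and the window value was called without replicate 1.3 (-0.96, adjusted p = 0.0400). The frog 2 calls were lost with a pseudocount of 0.1 (adjusted p = 0.247 and 0.232) and without replicate 2.2 or 2.3 (0.369 and 0.346 in the window, 0.113 and 0.378 under persistence), and the persistent one also without replicate 2.1 (0.0966). On the log2(TPM + 1) scale L rose by more than S in wild type embryos between 5.5 and 7.5 hpf. The difference was 1.51 ± 0.21 and 1.58 ± 0.22 in frogs 1 and 2 (limma, adjusted p = 8.87e-07 and 2.93e-07), where 27.5% and 47.1% of pairs were called. Both copies were near 0 TPM at 5.5 hpf, so the value gives the higher level of L at 7.5 hpf and not a change of its share. Reads of such similar copies can be assigned to the wrong one, which the deposited values do not show.

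**Figure D3:**
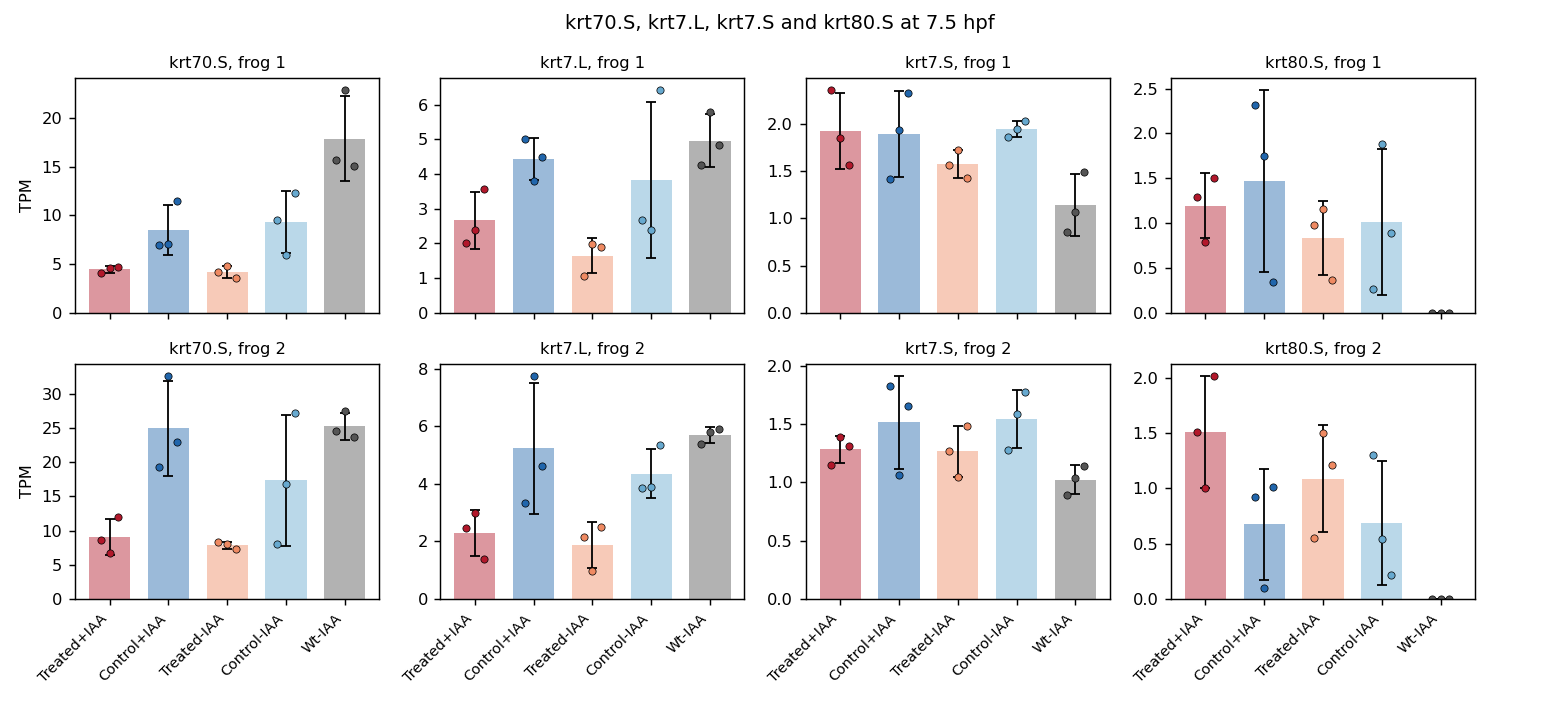
krt70.S, krt7.L, krt7.S and krt80.S at 7.5 hpf in TPM in the 5 embryo groups, with frog 1 above frog 2. Bars are means of 3 pools, points are the pools and error bars are SD, and each panel has its own scale from 0. krt70.S and krt7.L are lower in treated than in control embryos, krt7.S differs less, and krt80.S is at 0 in wild type pools only.

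**Figure D4:**
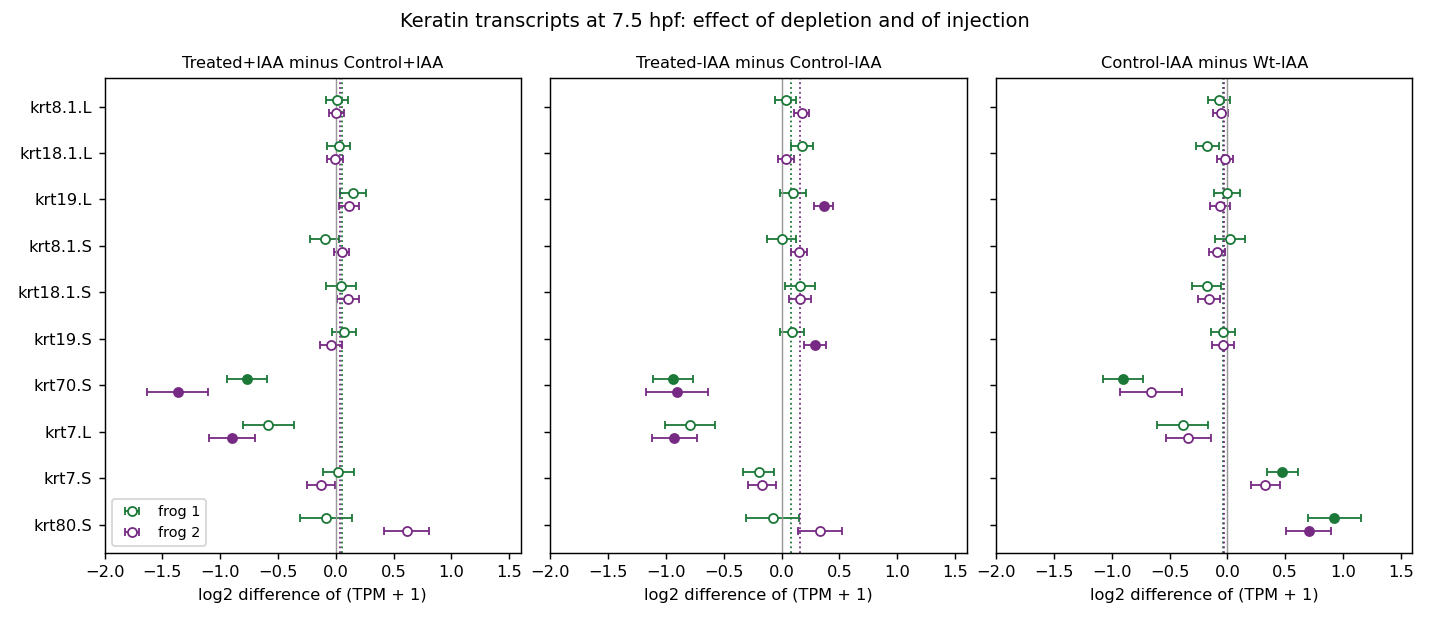
Difference of log2(TPM + 1) at 7.5 hpf for the 10 named keratins in window depletion, persistent depletion and control injection, with bars of 1 SE. Filled points were called by limma, open points were not, and dotted lines give the median of all genes in each frog. krt70.S and krt7.L lie to the left under depletion, and the 6 maternal copies at the top lie near the dotted lines.

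Across the family, depletion left most keratins near the median gene. At 7.5 hpf 1 of 12 was called lower in the window in frog 1, where 0.579% of genes were, and 2 of 12 in frog 2, where 1.87% were. Under persistence 1 was lower in frog 1 (0.641% of genes) and 2 in frog 2 (2.19%). krt70.S was the 1 keratin called lower in both frogs, in each scheme, where 0.245% of 19581 genes were in the window and 0.434% under persistence. The medians over the 12 were 0.02 and 0.00 in the window and 0.02 and 0.15 under persistence in frogs 1 and 2, beside 0.06, 0.03, 0.08 and 0.16 over all genes. krt19.L and krt19.S were called higher under persistence in frog 2, at 0.36 ± 0.08 and 0.29 ± 0.10 (limma, adjusted p = 0.00587 and 0.0376), where 13% of all genes were higher. After rescaling they were not called (0.18 and 0.12, adjusted p = 0.0906 and 0.532). krt19.L had 48.6, 52.4 and 46.1 TPM in Treated-IAA embryos of frog 2, against 39.8, 38.8 and 35.0 TPM in Control-IAA embryos. At 5.5 hpf no keratin was called in either scheme, with unadjusted p under 0.05 for 1 of 12 in frog 1 in each scheme and for 0 in frog 2, and 0.393% and 0.0148% of genes were called in the window and 0.0144% and 0.0197% under persistence. At 6.5 hpf none was called in frog 1, where 4 in the window and 0 under persistence had an unadjusted p under 0.05 and 0.105% and 0.0957% of genes were called. In frog 2 krt70.S alone was called in each scheme (0.952% and 1.16% of genes lower). The difference between schemes was called for no keratin at any time, with unadjusted p under 0.05 for at most 2 of 12 at any time in either frog, and of all genes at most 0.00957% were called.

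Injection of the control mRNAs was read from Control-IAA against Wt-IAA embryos. At 7.5 hpf krt80.S, krt7.S and krt70.S passed the test in at least 1 frog. krt80.S, a type II keratin on 2S (start 139744680, end 139762737), was at 0 TPM in all 9 wild type libraries of each frog. It was above 0 TPM in all 12 injected pools of each frog at 7.5 hpf, in 12 and 11 of 12 at 6.5 hpf and in 3 and 2 of 12 at 5.5 hpf. In frog 1 it had 0.261, 1.88 and 0.886 TPM in Control-IAA embryos at 7.5 hpf, and in frog 2 1.304, 0.542 and 0.214 TPM, against 0 TPM in the wild type pools of both. Its highest value in any pool was 2.32 TPM in frog 1 and 2.02 TPM in frog 2. The difference was 0.92 ± 0.23 and 0.70 ± 0.19 (limma, adjusted p = 0.00784 and 0.0406), and no fold is given against a group listed at 0. The gene reached 1 TPM in injected libraries only and passed the filter through them, so that a difference from wild type embryos was built into its selection. None of the injected mRNAs was named as a keratin, and in TPM, reads of the embryo's own gene and reads of injected material cannot be told apart. It was the 1 keratin called higher in both frogs, where 1.2% of genes were. The call was lost without replicate 1.2 or 1.3 in frog 1 (adjusted p = 0.759 and 0.0554) and without any 1 replicate in frog 2 (0.0652 to 0.975), although each injected pool stayed above each wild type pool. Depletion did not move it past the test, with -0.09 ± 0.23 and 0.61 ± 0.19 in the window (adjusted p = 0.988 and 0.0796) and -0.08 ± 0.23 and 0.33 ± 0.19 under persistence (0.946 and 0.210), and in frog 2 the window value was called after rescaling (0.69, adjusted p = 0.0440) and the persistent one without replicate 2.1 (0.78, adjusted p = 0.0202). Over all genes, 29 in frog 1, 36 in frog 2 and 6 in both were at 0 TPM in all wild type libraries and above 0 TPM in all injected pools at 7.5 hpf.

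krt70.S was lower in Control-IAA than in wild type embryos in frog 1. The values were 9.55, 5.94 and 12.3 TPM in Control-IAA embryos, against 15.6, 22.9 and 15.1 TPM in Wt-IAA embryos, without overlap. Frog 2 had 8.08, 16.8 and 27.3 TPM in Control-IAA embryos, against 24.6, 27.6 and 23.7 TPM in Wt-IAA embryos, with overlap. The differences were -0.90 ± 0.17 and -0.66 ± 0.27 (limma, adjusted p = 0.000436 and 0.350). The frog 1 call was lost without replicate 1.2 (adjusted p = 0.495), and frog 2 was called without replicate 2.3 (-1.09, adjusted p = 0.0186). krt7.S was higher in Control-IAA embryos of frog 1, with 1.86, 1.95 and 2.04 TPM against 0.857, 1.07 and 1.496 TPM in wild type embryos. In frog 2 the values were 1.28, 1.59 and 1.77 TPM in Control-IAA embryos against 0.892, 1.03 and 1.15 TPM in wild type embryos. The groups did not overlap in either frog, and the differences were 0.47 ± 0.13 and 0.33 ± 0.12 (adjusted p = 0.0324 and 0.248). The frog 1 call was lost without any 1 replicate (0.104 to 0.556) and with a pseudocount of 0.1 (0.529). At 6.5 hpf the differences of krt7.S were 0.56 ± 0.13 and 0.38 ± 0.12 (adjusted p = 0.00799 and 0.303).

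The share of krt7 RNA from the L copy had its highest mean in wild type embryos. It was 57.3 ± 11.8% in Treated+IAA, 70.0 ± 6.9% in Control+IAA, 50.3 ± 8.8% in Treated-IAA, 63.3 ± 11.1% in Control-IAA and 81.4 ± 4.4% in Wt-IAA embryos of frog 1 at 7.5 hpf (SD, n = 3 each). In frog 2 it was 62.6 ± 9.5%, 75.4 ± 11.8%, 57.9 ± 8.4%, 73.7 ± 2.4% and 84.8 ± 1.0% in the same groups. For injection the change of L minus S was -0.86 ± 0.21 in frog 1 (limma, adjusted p = 0.00793) and -0.67 ± 0.22 in frog 2 (adjusted p = 0.112), where 4.67% and 2.87% of pairs were called. The frog 1 call was lost with a pseudocount of 0.1 (0.138) and without replicate 1.1 or 1.2 (0.226 and 0.662). Over the groups whose pools all had at least 1 TPM of krt7, its L share spanned 40.45 to 84.42% in 18 libraries of frog 1. In 21 libraries of frog 2 it spanned 46.62 to 87.95%. The maternal pairs, at far higher TPM, spanned narrower ranges, and the part of the level in this was not tested. Their L copy was at 86.2 to 92.3% for krt8.1, 64.5 to 76.9% for krt18.1 and 59.6 to 67.0% for krt19 over the 45 libraries of frog 1. In frog 2 these ranges were 83.3 to 86.4%, 71.3 to 79.6% and 73.6 to 79.8%. The krt19 ranges of the 2 frogs did not overlap.

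**Figure D5:**
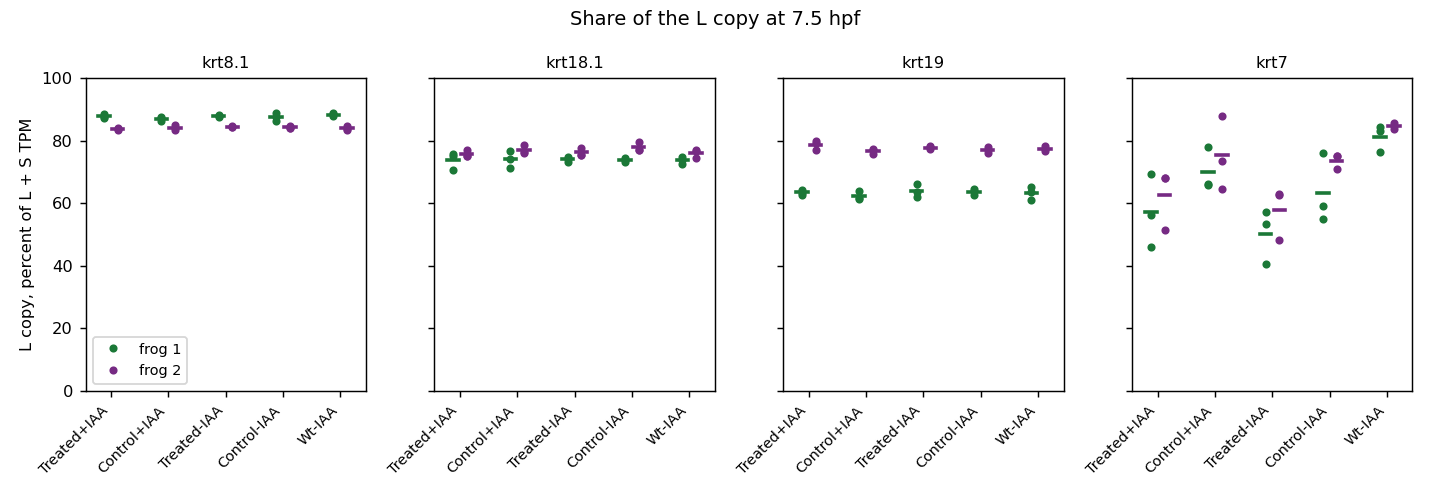
Share of the L copy in the summed TPM of both copies of krt8.1, krt18.1, krt19 and krt7 at 7.5 hpf, in percent, for the 5 embryo groups. Points are pools and short lines are means of 3 pools, with frog 1 in green and frog 2 in purple. The mean share of krt7.L is highest in wild type embryos of both frogs, with 1 Control+IAA pool of frog 2 above the wild type pools, while the maternal pairs vary less across groups.

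Over the family, control injection at 7.5 hpf gave 2 keratins higher and 1 lower in frog 1, where 2.72% and 1.47% of genes were. Frog 2 had krt80.S higher (1.42% of genes) and 0 lower (1.02%). At 6.5 hpf frog 1 had 1 higher and 5 lower, where 1.66% and 16.8% of genes were and the median gene stood at -0.25. After rescaling 1 was higher (1.59% of genes) and 0 lower (104 of 20739 genes). krt70.S was 1 of the 5, with 0.731, 0.338 and 0.810 TPM in Control-IAA embryos, against 1.36, 1.00 and 1.53 TPM in Wt-IAA embryos (-0.50 ± 0.17, limma, adjusted p = 0.0438), and was not called after rescaling (-0.33, adjusted p = 0.651). In frog 2 it was 0.11 ± 0.27. No keratin was called in frog 2 at 6.5 hpf (1 of 12 with unadjusted p under 0.05, 0.671% of genes called) or in either frog at 5.5 hpf (0 and 1 of 12, 0.426% and 0.0345% of genes). Auxin in controls, Control+IAA against Control-IAA embryos, gave 6 keratins higher at 5.5 hpf and 7 at 6.5 hpf in frog 1, where 38.7% and 21.9% of genes were higher and the median gene stood at 0.29 and 0.27. After rescaling none was called, with unadjusted p under 0.05 for 1 and 2 of 12 and calls for 0.829% and 0% of genes. None was called at 7.5 hpf in frog 1 (0.00957% of genes, 0 of 12 keratins at an unadjusted p under 0.05) or at any time in frog 2 (at most 0.00986% of genes and 1 of 12 keratins).

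The partners of keratins and the genes that regulate epidermis were read from lists for comparison. Of 26 symbols of epidermal regulators, such as the grhl, tfap2, foxi and ventx transcription factors, 39 copies were tested in frog 1 and 32 in frog 2. At 7.5 against 5.5 hpf in wild type embryos 34 were called higher in frog 1 and 0 lower, and frog 2 had 20 higher against 9 lower, with medians of 2.11 and 2.09. Of all genes 56.2% were higher in frog 1, while frog 2 had 8.37% higher against 79.7% lower. Of 48 listed copies, 14 in frog 1 and 13 in frog 2 were at 1 TPM or more in all wild type pools at 5.5 hpf. Copies that passed the filter only through later libraries had a rise built into their selection. The largest changes called in both frogs were those of ventx2.1.L, ventx2.2.L, ventx2.1.S and foxi4.2.L, at 6.89 and 6.18, 6.78 and 5.54, 6.33 and 5.83, and 6.41 and 5.70 in frogs 1 and 2. The ventx genes are BMP targets of ventral ectoderm and mesoderm, and foxi4.2 is an ectodermal activator. Under depletion at 7.5 hpf 3 and 7 regulators were lower in the window and 2 and 6 under persistence in frogs 1 and 2, with 4 higher in frog 2 under persistence. Of all genes 0.579% and 1.87% were lower in the window and 0.641% and 2.19% under persistence, and 13% were higher under persistence in frog 2. The medians of the regulators were -0.17 and -0.23 in the window and -0.23 and -0.09 under persistence, beside those of all genes given above.

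On injection 6 regulators of frog 1 (2.72% of genes) and 3 of frog 2 (1.42%) were higher, against 7 (1.47%) and 6 (1.02%) that were lower. In both frogs, grhl3.L, foxi1.L and foxi1.S were called higher, and tfap2a.S, dlx5.S, ventx1.1.S and bmp4.L lower, with -0.74 and -0.84, -1.03 and -0.93, -0.99 and -0.66, and -0.55 and -0.60. These genes were picked after their values were seen. grhl3.L, an activator of epidermal barrier genes, averaged 69.8 ± 8.2 TPM in Control-IAA and 29.8 ± 1.2 TPM in Wt-IAA embryos of frog 1 at 7.5 hpf, and 26.9 ± 3.3 and 14.5 ± 1.9 TPM in frog 2 (SD, n = 3 each). foxi1.L, an ectodermal factor with a role in ionocytes, averaged 52.4 ± 8.7 and 19.1 ± 0.7 TPM in frog 1 and 41.5 ± 12.7 and 6.19 ± 0.40 TPM in frog 2. Both were called in both frogs (1.19 and 0.85 for grhl3.L, 1.396 and 2.52 for foxi1.L, limma, adjusted p from 1.13e-12 to 0.000586). Their part in the keratin values was not tested.

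Other intermediate filament genes, 18 symbols with 13 and 12 copies tested, gave no call in the window or on injection at 7.5 hpf. Under persistence 2 were higher in frog 2, where 13% of all genes were. In the window 0.579% and 1.87% of all genes were lower in frogs 1 and 2, and 9 of 20891 and 259 of 20277 higher. On injection 2.72% and 1.42% were higher and 1.47% and 1.02% lower. In wild type embryos 10 of 13 were higher in frog 1, and of 12 in frog 2 1 was higher and 9 were lower, with medians of 0.50 and -0.50. Of all genes 56.2% were higher in frog 1 and 79.7% lower in frog 2, with medians of 0.39 and -0.69. The neurofilament gene nefl.L was called higher in both frogs (1.03 and 0.38). Keratin attachment genes, 21 symbols of plakins, desmosome and hemidesmosome parts and the krtcap genes, had 16 and 15 copies tested. In wild type embryos 15 were higher and 1 lower in frog 1 and 14 lower in frog 2, with medians of 0.58 and -0.57, beside the same shares and medians of all genes. krtcap2.L, which encodes a subunit of the oligosaccharyltransferase complex, was called lower in both frogs (-0.84 and -1.35). None of the attachment genes was called in the window or on injection at 7.5 hpf, beside the same shares of all genes. Under persistence 1 was higher in frog 2, where 13% of all genes were.

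Markers of cell layers were set beside the fall of krt70.S, and their counts stand beside the shares of all genes given for the regulators. The 8 symbols of surface epithelium had 12 and 11 copies tested, with 1 lower in each frog in the window and 1 and 2 lower under persistence, where frog 2 also had 4 higher. Their medians were 0.02 and 0.01 in the window and -0.06 and 0.18 under persistence. Their summed level at 7.5 hpf was 635 to 688 TPM in Treated+IAA and 636 to 675 TPM in Control+IAA embryos of frog 1, and 410 to 467 TPM and 422 to 426 TPM in frog 2. The ranges overlapped in both frogs. Under persistence it was 623 to 703 TPM in Treated-IAA and 649 to 701 TPM in Control-IAA embryos of frog 1, with overlap. In frog 2 it was higher in treated embryos without overlap, with 418 to 477 TPM in Treated-IAA and 374 to 412 TPM in Control-IAA embryos. There the median over all genes also stood at 0.16, and the sums were not rescaled. cdh1.S, a copy of E-cadherin picked after its values were seen, was lower under persistence in both frogs (-0.57 and -0.70, limma, adjusted p = 0.00552 and 0.00112). It had 1.58 ± 0.48 TPM in Treated-IAA and 2.79 ± 0.21 TPM in Control-IAA embryos of frog 1, and 0.724 ± 0.181 and 1.87 ± 0.85 TPM in frog 2. It was the 1 surface copy called in frog 1. In frog 2 it was among the 2 lower, against 4 surface copies that were higher, where 13% of all genes were higher. Of 13 marker copies of deep or neural ectoderm, 4 and 7 were lower in the window and 2 and 6 under persistence in frogs 1 and 2, with 1 higher under persistence in frog 2. Their summed level was 1493 to 1612 TPM in Treated+IAA and 1473 to 1515 TPM in Control+IAA embryos of frog 1, with overlap. In frog 2 it was lower in treated embryos without overlap, with 1269 to 1361 TPM and 1486 to 1520 TPM. Under persistence it was 1560 to 1654 TPM in Treated-IAA and 1457 to 1614 TPM in Control-IAA embryos of frog 1. In frog 2 it was 1349 to 1409 TPM and 1301 to 1408 TPM, and the ranges overlapped in both frogs. Those of mesoderm and endoderm were lower for 9 of 26 and 3 of 23 copies in the window and 4 and 10 under persistence, with 2 higher under persistence in frog 2. Their summed level was 1263 to 1758 TPM in Treated+IAA and 2245 to 2376 TPM in Control+IAA embryos of frog 1, without overlap. In frog 2 it was 736 to 742 TPM and 738 to 964 TPM, with overlap. Under persistence it was 1202 to 1828 TPM in Treated-IAA and 1843 to 2215 TPM in Control-IAA embryos of frog 1, without overlap. In frog 2 it was 509 to 765 TPM and 647 to 899 TPM, with overlap. Wild type embryos at 5.5 hpf already had surface sums of 348 to 409 and 506 to 523 TPM in frogs 1 and 2. Their deep or neural ectoderm sums were 996 to 1259 and 1768 to 1875 TPM. Those of mesoderm and endoderm were 19.4 to 19.5 and 16.9 to 17.9 TPM. The surface and ectoderm sums thus held much RNA present by 5.5 hpf, and cannot show whether those layers were unchanged. The part of the layer markers in the fall of krt70.S was not tested.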

How the data were processed

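RNA from whole embryos was depleted of ribosomal RNA and sequenced with a strand-specific kit, per the labels. With kallisto 0.48 and tximport the authors made gene TPM on the Xenbase transcripts of genome v10.1, deposited as 1 table per frog. The labels also name DESeq2 1.42.1, not used here, since TPM hold no counts. In frog 2, 806 entries without a name were left out. Names listed more than once were summed. No pair of libraries was identical.

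Groups came from the labels. Each frog was fitted alone with limma 3.58.1 in R 4.3.3 on log2(TPM + 1), with 15 group means, a mean-variance trend and Benjamini-Hochberg adjustment within each of 17 contrasts, two-sided, at 0.05. Genes needed at least 1 TPM in at least 3 libraries. Rescaling used median ratios of genes averaging at least 10 TPM. Keratins were named where a group mean reached 5 TPM in each frog, or where called in both frogs with one sign. Genes of the other lists were named if called in both frogs at 7.5 hpf, up to 4 a list. The regulators named for injection and the markers cdh1.S and itln1.L went beyond this rule. Members and lists were chosen with earlier results of these data known. The code was tested on simulated data. Alternatives were a pseudocount of 0.1, no filter, a mean of at least 5 TPM, libraries of the contrast alone, rescaling, removal of abundant RNA classes, a replicate block and leaving out each replicate. No sequences are shown, since none were used here.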

Additional observations from a re-analysis of the deposited data

Results flagged for a closer look

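The maternal keratins moved in opposite directions in the 2 frogs when wild type embryos at 6.5 or 7.5 hpf were set against those at 5.5 hpf, with each pool of one time beyond each pool of the other in both frogs, except for krt8.1.S, whose pools of 5.5 and 6.5 hpf overlapped in frog 2. At 6.5 hpf the changes in frogs 1 and 2 were 0.61 and -0.34 for krt18.1.L, 0.77 and -0.63 for krt18.1.S, 0.83 and -0.38 for krt19.L, 0.94 and -0.53 for krt19.S, and 0.64 and -0.38 for krt8.1.L. At 7.5 hpf they were 0.58 and -0.61 for krt18.1.L, 0.59 and -0.82 for krt18.1.S, 0.54 and -0.85 for krt19.L, 0.60 and -1.01 for krt19.S, 0.44 and -0.66 for krt8.1.L, and 0.63 and -0.41 for krt8.1.S. The median gene moved by 0.61 and -0.34 at 6.5 hpf and by 0.39 and -0.69 at 7.5 hpf. The difference between the frogs was not tested.

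Auxin in controls gave krt8.1.S 0.41 in frog 1 and -0.17 in frog 2 at 5.5 hpf, where the median gene stood at 0.29 and -0.01. In frog 1, krt19.L was at 0.50 and 0.35 at 5.5 and 6.5 hpf and at -0.14 at 7.5 hpf, where the median gene stood at 0.29, 0.27 and -0.01. In each case the pools did not overlap, and the difference was not tested.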

How the results depend on the processing

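Counts of called keratins depended on the setting. Fitting the libraries of the contrast alone gave 0 for depletion and injection at 7.5 hpf in both frogs, for depletion at 6.5 hpf in frog 2, and for injection at 6.5 hpf and auxin at 5.5 and 6.5 hpf in frog 1. A mean of at least 5 TPM removed krt70.S of frog 1 and krt7.L, krt7.S, krt80.S, krt8.2.S and krt18.3.S of both frogs. By construction this left 0 for injection at 7.5 hpf in both frogs and for window and persistence at 7.5 hpf in frog 1. It also left 1 for the window at 7.5 hpf in frog 2 and 6 for wild type embryos at 7.5 hpf in frog 1. Persistence at 6.5 hpf in frog 2 gave 0, where krt70.S was still tested. Median-ratio rescaling gave 0 for auxin at 5.5 and 6.5 hpf and 1 for injection at 6.5 hpf in frog 1, 2 for persistence at 7.5 hpf in each frog, 2 for wild type embryos at 6.5 hpf in frog 1 (all higher) and 4 in frog 2 (3 higher, 1 lower), and 3 at 7.5 hpf in frog 1. Without a filter, auxin at 7.5 hpf gave 1, injection at 7.5 hpf 5 and 2, persistence at 7.5 hpf in frog 1 2, the window at 6.5 hpf in frog 2 0, and window minus persistence at 7.5 hpf in frog 2 1. A pseudocount of 0.1 gave 0 in frog 1 for both schemes at 7.5 hpf and 1 for the window in frog 2. Removing abundant RNA classes gave 0 for auxin at 5.5 and 6.5 hpf and 1 for injection at 6.5 hpf in frog 1. Apart from the filter, the cause was not tested.

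Without 1 replicate the counts ran from 0 to 1 and 0 to 2 for the window at 7.5 hpf in frogs 1 and 2, 0 to 1 and 0 to 5 for persistence, and 0 to 2 and 0 to 1 for injection. They ran from 0 to 8 for injection at 6.5 hpf and 0 to 6 for auxin at 5.5 and at 6.5 hpf in frog 1, were 0 in each case for the window and ran from 0 to 1 for persistence at 6.5 hpf in frog 2. Values whose sign turned without 1 replicate were not called. For krt7.S in the window the lowest and highest were -0.207 and 0.219 in frog 1 and -0.297 and 0.005 in frog 2. For krt80.S in frog 1 they were -0.578 and 0.179 in the window (0.137 without replicate 1.1) and -0.442 and 0.114 under persistence (0.091 without replicate 1.2). For krt70.S on injection at 6.5 hpf in frog 2 they were -0.141 and 0.609 (-0.129 without replicate 2.1).

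Rescaling turned the sign of wild type changes at 6.5 hpf, to -0.100 and 0.056 for krt18.1.L, -0.072 and 0.017 for krt8.1.L and -0.038 and 0.262 for krt8.1.S in frogs 1 and 2, and to 0.013 for krt19.L in frog 2. At 7.5 hpf in frog 2 it gave 0.191, 0.147 and 0.377 for krt18.1.L, krt8.1.L and krt8.1.S. In frog 1 it gave -0.004 for krt19.S under persistence and -0.021 for krt7.S in the window. Removing RNA classes gave 0.026 for krt8.1.S at 6.5 hpf in frog 2.

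Same-numbered pools did not deviate together, with correlations between -0.0913 and 0.0789 (frog 1) or -0.136 and 0.0805 (frog 2), so the numbers do not pair the samples. With the replicate block no count changed, and the window and persistent values of krt70.S were -0.77 and -0.94 in frog 1 and -1.37 and -0.91 in frog 2. The persistent L minus S change of krt7 in frog 2 was no longer called (adjusted p = 0.0571).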
